A study of Mus musculus with 30 samples.

Results

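The enzymes of the pentose phosphate pathway were followed in sorted mouse bone marrow stem and progenitor cells after treatment with MTP10-HDL, a high-density lipoprotein nanoparticle that carries muramyl tripeptide, a synthetic relative of a bacterial cell wall fragment sensed through Nod2. The members were the 10 genes G6pdx, H6pd, Pgls, Pgd, Rpia, Rpe, Tkt, Taldo1, Prps1 and Prps2, found by gene name among the 55471 genes of each count table. The set was proposed because G6pdx was among the genes of smallest p in the stem cell comparison, so the stem cell values of all 10 genes are given here as a description, with no p-value for any member, and HSC counts of members past a threshold support nothing. The multipotent progenitor comparison was not used for that choice and carries the tests.

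All mice were C57BL/6, and bone marrow was depleted of lineage-positive cells and then flow sorted. Hematopoietic stem cells (HSCs) gave 6 libraries from MTP10-HDL mice and 7 from mice given phosphate-buffered saline (PBS). Multipotent progenitors (MPPs) gave 3 libraries from MTP10-HDL mice, numbered 1 to 3, and 2 from PBS mice, numbered 2 and 3. Each RNA library was a pool of 4 mice, so p-values measure the spread between pools. The MPP mice had 3 injections over 5 days and were killed a day after the last. The schedule of the HSC mice is not given in the sources used here. The 12 ATAC-seq samples of the series were not analysed here.

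The pentose phosphate pathway branches off glycolysis at glucose-6-phosphate. Its oxidative branch makes NADPH, which feeds glutathione recycling, fatty acid and sterol synthesis and the phagocyte NADPH oxidase, and its non-oxidative branch links ribose-5-phosphate to glycolytic sugars in both directions. PRPP synthetases turn ribose-5-phosphate into phosphoribosyl pyrophosphate (PRPP), the ribose donor for nucleotide synthesis.

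The start regions of G6pdx, Prps1 and Pgls are shown because G6pdx and Prps1 had the largest HSC differences among the members and Pgls the largest MPP difference. Each window runs 5' to 3' on the gene's own strand, from 250 bases before to 50 bases after a transcript start in RefSeq, assembly GRCm38.p6. The windows are chrX:74428831-74429130 on the minus strand for G6pdx, chrX:140456353-140456652 on the plus strand for Prps1 and chr8:71591934-71592233 on the plus strand for Pgls. Capitals mark matches, on either strand, to the antioxidant response element core TGACNNNGC, the GC box GGGCGG, the CCAAT box CCAAT, the E-box CACGTG or the interferon-stimulated response element core (GAAA, any 2 bases, GAAA).
G6pdx: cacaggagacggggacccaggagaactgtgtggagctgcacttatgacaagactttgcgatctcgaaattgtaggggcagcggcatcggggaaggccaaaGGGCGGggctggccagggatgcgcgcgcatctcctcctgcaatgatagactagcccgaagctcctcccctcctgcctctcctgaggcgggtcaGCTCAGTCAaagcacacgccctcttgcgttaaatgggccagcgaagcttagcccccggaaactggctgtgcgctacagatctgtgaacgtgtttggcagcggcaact
Prps1: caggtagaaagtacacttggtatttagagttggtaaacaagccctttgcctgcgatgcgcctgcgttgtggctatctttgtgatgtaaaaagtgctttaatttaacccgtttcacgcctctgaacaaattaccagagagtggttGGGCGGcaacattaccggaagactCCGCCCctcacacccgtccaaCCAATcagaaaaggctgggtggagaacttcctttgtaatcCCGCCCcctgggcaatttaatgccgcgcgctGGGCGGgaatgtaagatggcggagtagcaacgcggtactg
Pgls: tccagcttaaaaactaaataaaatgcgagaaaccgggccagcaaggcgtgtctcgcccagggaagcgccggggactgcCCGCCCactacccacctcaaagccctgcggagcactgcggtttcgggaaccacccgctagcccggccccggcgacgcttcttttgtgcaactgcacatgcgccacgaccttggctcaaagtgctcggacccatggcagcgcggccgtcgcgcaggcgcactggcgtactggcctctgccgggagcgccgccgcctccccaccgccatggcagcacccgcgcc

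The G6pdx window held an antioxidant response element core on the reverse strand, GCTCAGTCA, whose first base in the window lies at position -57 from the start, and a GC box at -150. The only other member window with that core was a second, downstream start of Pgd. The core occurs in 12.4% of all 32851 RefSeq promoter windows of this length. Prps1 held 4 GC boxes and a CCAAT box, and Pgls held 1 GC box. The members had 11 windows in all, and that of H6pd lies at an internal start. The starts used for Rpe and Prps2 also lie inside the gene's outer bounds, though nearer to its outer end. GC boxes were present in windows of 8 of the 10 members, against 35.7% of all windows, and CCAAT boxes in 5 of 10 members, against 37.4% of all windows. No member window held the E-box (7.15% of all windows), and 1 member, Rpe, held the interferon-stimulated response element core (3.44% of all windows). The motifs do not overlap in these 3 windows. GC content was 60.0% for G6pdx, 51.3% for Prps1 and 67.3% for Pgls, against a median of 52.7% over all windows. Matches are letters in a window, and binding was not measured here.

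Library totals ran from 5467455 to 7641976 counts in MTP10-HDL HSCs and from 4064155 to 7879858 in PBS HSCs, and from 17555267 to 32769369 in MTP10-HDL MPPs and from 11252479 to 14691375 in PBS MPPs. HSC libraries were amplified cDNA and MPP libraries were poly-A selected, so levels are not compared between the cell types. All 10 HSC and progenitor identity markers, Kit and Procr among them, were detected in both sorts. The HSC libraries were cut by rank into 3 groups, called technical groups here, which hold both treatments. These were the 4 with the fewest detected genes, the 4 others with the highest ribosomal RNA share and the remaining 5. The sample labels name no such groups or batches, and the origin of the groups was not tested. In MPPs, immunoglobulin genes took 3.75% ± 0.862 (SD, n = 3) of counts with MTP10-HDL and 9.35% ± 4.46 (n = 2) with PBS, and the exact permutation p of 0.1 (2-sided) is the smallest this design allows. Ribosomal RNA took 0.759% ± 0.22 with MTP10-HDL and 1.36% ± 0.153 with PBS, with the same exact p. Erythroblast markers (8 genes, none at 0 in a whole group) summed to 54.2 to 120 CPM in MTP10-HDL HSCs and 111 to 419 CPM in PBS HSCs, and to 17.8 to 38.8 CPM in MTP10-HDL MPPs and 54.2 to 54.9 CPM in PBS MPPs. The part of library composition and of these cells in the results was not tested.

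Levels are scaled counts (CPM, reads set to a common library total with TMM, a trimmed-mean scaling between libraries), and differences are log2 fold changes of MTP10-HDL over PBS from edgeR's quasi-likelihood fit, with their standard errors (SE). In HSCs, 9 of the 10 members were higher with MTP10-HDL (7 of 10 with upper-quartile scaling, where Rpe and Prps2 turn sign), with a median log2 fold change of 0.12, against -0.02 over the 16631 genes tested, of which 47.7% were higher and 52.3% lower. All 10 members passed the filter on low counts in both cell types. By edgeR at a false discovery rate (FDR) of 0.05, 0 members and 0% of all HSC genes were called. At an unadjusted p under 0.05, 3 members (G6pdx, Prps1 and Tkt) stood higher and 0 lower, beside 4.36% of all genes higher and 4.47% lower (8.83% in either direction). In no member did every MTP10-HDL library lie above, or below, every PBS library, as was so in 0.174% and 0.168% of all genes. DESeq2 called 1 member, G6pdx, and 0.553% of all genes, and limma voom called 0. G6pdx was picked from this very contrast, so nothing is read from these counts.

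The oxidative branch turns glucose-6-phosphate into ribulose-5-phosphate. G6pdx, the cytosolic dehydrogenase that opens the branch (ENSMUSG00000031400, chrX:74409483-74428880), stood at 239.6, 140.9, 174.6, 166.5, 116.1 and 163.3 CPM in MTP10-HDL HSC libraries 1 to 6. In PBS HSC libraries 1 to 7 it stood at 118.0, 94.3, 111.3, 92.4, 126.2, 85.6 and 75.7 CPM. MTP10-HDL libraries other than number 5 lay above every PBS library, and library 5 lay above 5 of the 7 PBS libraries, so the groups overlapped by that single pool. The means were 166.9 ± 41.5 CPM with MTP10-HDL and 100.5 ± 18.4 CPM with PBS (SD, n = 6 and 7), a log2 fold change of 0.73 (SE 0.17). Leaving out any single library gave 0.60 (without MTP10-HDL 1) to 0.83 (without MTP10-HDL 5).

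H6pd encodes the hexose-6-phosphate dehydrogenase of the endoplasmic reticulum, which runs the same first steps inside that compartment (ENSMUSG00000028980, chr4:149979474-150009023). Its lowest, median and highest levels were 66.8, 70.5 and 77.4 CPM in MTP10-HDL HSCs, against 53.5, 64.2 and 77.8 CPM in PBS HSCs. All 6 MTP10-HDL libraries lay above the PBS median and none above the PBS maximum, and the log2 fold change was 0.13 (SE 0.12).

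Pgls, the 6-phosphogluconolactonase of the next step (ENSMUSG00000031807, chr8:71592184-71596267), had a lowest, median and highest level of 15.4, 24.8 and 30.1 CPM in MTP10-HDL HSCs, against 13.9, 25.1 and 37.0 CPM in PBS HSCs. The ranges were nested and the log2 fold change was 0.06 (SE 0.24). Pgls also had the smallest count of any member in HSCs, 63 reads in PBS 7. Pgd, the 6-phosphogluconate dehydrogenase that makes the second NADPH (ENSMUSG00000028961, chr4:149149991-149166705), ran at 65.9, 102.5 and 165.3 CPM (lowest, median, highest) in MTP10-HDL HSCs, against 59.1, 82.1 and 127.5 CPM in PBS HSCs. Only MTP10-HDL 1 and 4 lay above the PBS maximum. The Pgd log2 fold change was 0.30 (SE 0.22), and it was 0.15 without MTP10-HDL 4.

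The non-oxidative branch rearranges sugar phosphates without making NADPH. Rpia, the ribose-5-phosphate isomerase (ENSMUSG00000053604, chr6:70765720-70792175), was the single member that stood lower, at 28.5 ± 7.98 CPM with MTP10-HDL and 29.5 ± 8.80 CPM with PBS, a log2 fold change of -0.05 (SE 0.23). Rpe, the ribulose-5-phosphate epimerase (ENSMUSG00000026005, chr1:66700797-66719805), stood at 39.1 ± 8.95 CPM with MTP10-HDL and 37.6 ± 9.21 CPM with PBS (0.06, SE 0.19). Taldo1, transaldolase (ENSMUSG00000025503, chr7:141392160-141402976), stood at 37.2 ± 9.57 CPM with MTP10-HDL and 34.6 ± 11.2 CPM with PBS (0.10, SE 0.21). All of these differences are smaller than their SE. Tkt, the transketolase that moves 2-carbon units between sugar phosphates (ENSMUSG00000021957, chr14:30549131-30574724), ran at 96.4, 136.6 and 182.3 CPM (lowest, median, highest) in MTP10-HDL HSCs, against 86.7, 106.8 and 149.2 CPM in PBS HSCs. MTP10-HDL libraries other than number 3 lay above the PBS median, 2 of them lay above the PBS maximum, and the log2 fold change was 0.32 (SE 0.15).

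Of the PRPP synthetases, Prps1 had the larger HSC difference. Prps1 (ENSMUSG00000031432, chrX:140456603-140476140) stood at 44.8, 61.4, 74.6, 55.9, 62.9 and 74.9 CPM in MTP10-HDL libraries 1 to 6. In PBS libraries 1 to 7 it stood at 50.2, 44.4, 40.9, 56.5, 17.4, 47.8 and 37.2 CPM. All 6 MTP10-HDL libraries lay above the PBS median of 44.4 CPM and 4 of them above the PBS maximum, and PBS 5 was far below the others. The log2 fold change was 0.57 (SE 0.21), and it was 0.44 without PBS 5. Prps2 (ENSMUSG00000025742, chrX:167346320-167382872) stood at 81.4 ± 11.6 CPM with MTP10-HDL and 80.0 ± 13.1 CPM with PBS (SD, n = 6 and 7), a log2 fold change of 0.02 (SE 0.14).

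**Figure D1:**
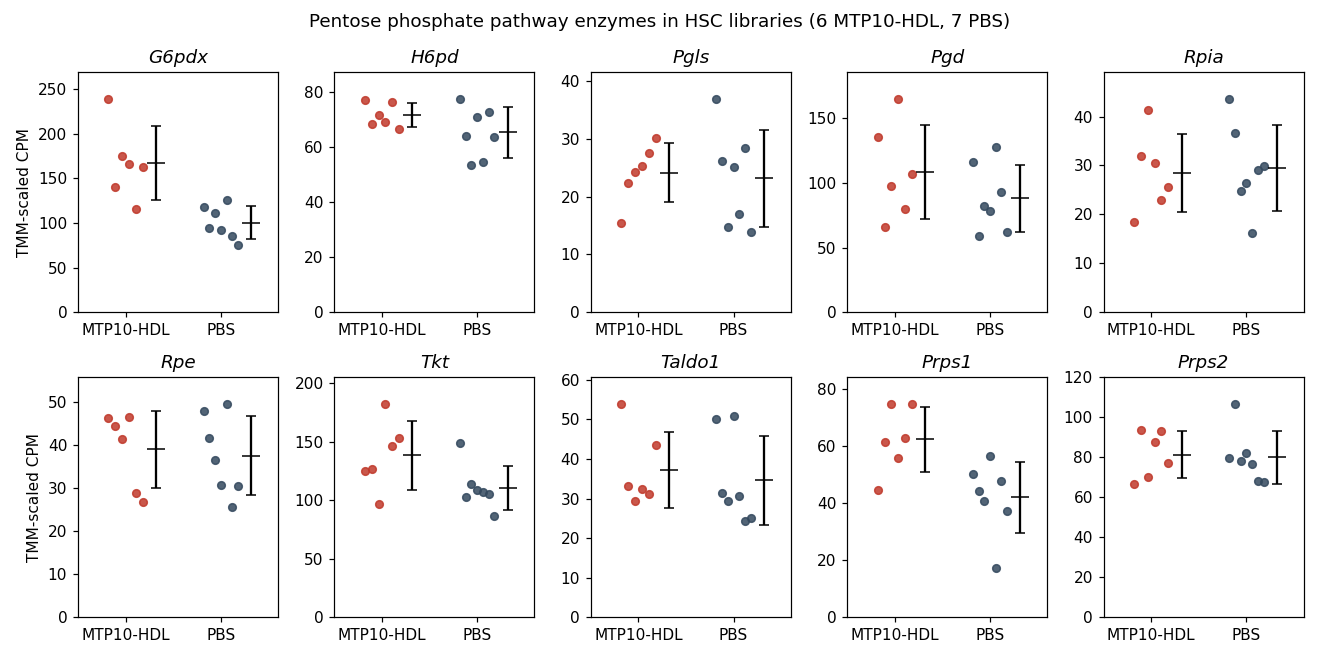
Level of each member in HSC libraries (TMM-scaled CPM, linear axis from 0), with a point per library and the mean ± SD beside each group, MTP10-HDL (n = 6) left of PBS (n = 7). G6pdx runs from 116.1 to 239.6 CPM with MTP10-HDL and from 75.7 to 126.2 CPM with PBS, while Prps2 overlaps throughout.

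Within the 3 technical groups of HSC libraries, G6pdx and Prps1 were the only members higher with MTP10-HDL in all 3. The difference in mean log2 CPM of G6pdx was 0.59 among the libraries with the fewest detected genes (2 against 2), 0.96 among those with the highest ribosomal RNA share (2 against 2) and 0.56 among the other libraries (2 against 3). For Prps1 it was 0.35, 0.23 and 1.12 in the same order. Tkt was lower with MTP10-HDL in the first group (-0.21) and higher in the others (0.48 and 0.59), and Taldo1 had -0.69 in the first group and 0.46 in each of the others. Pgd had -0.25 and 1.10 in the first groups and 0.04 among the other libraries. With 2 or 3 libraries on a side, these values are descriptions. The share of all genes higher in all 3 groups is not given here. G6pdx was picked from this same contrast, so nothing is read from its sign across the groups.

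**Figure D2:**
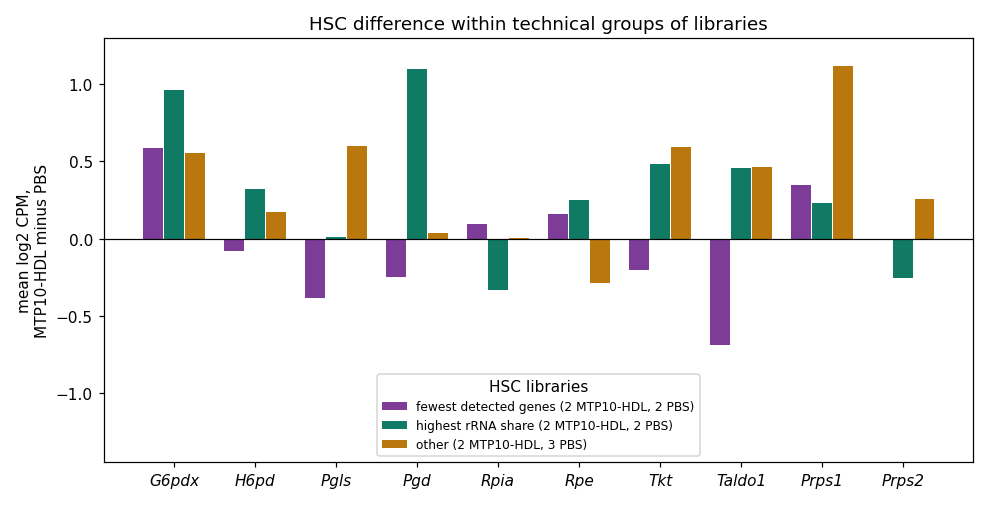
Difference in mean log2 CPM, MTP10-HDL minus PBS, of each member within the 3 technical groups of HSC libraries (bars, 2 to 3 libraries on a side, no error bars). G6pdx (0.56 to 0.96) and Prps1 (0.23 to 1.12) are above 0 in all 3 groups, and the other members change sign between groups. The share of all genes above 0 in all 3 groups is not given here.

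Markers of mature myeloid cells varied along with G6pdx across HSC libraries, and their part in its HSC difference was not tested. The summed level of 8 mature neutrophil markers, S100a8 and Ltf among them and none at 0, ran from 535 to 4925 CPM in MTP10-HDL HSCs (median 1423) and from 88.7 to 3396 CPM in PBS HSCs (median 706). That of 8 monocyte and macrophage markers ran from 138 to 2380 CPM with MTP10-HDL (median 239) and from 114 to 1867 CPM with PBS (median 288). Its genes went both ways, with 6 of the 8 higher (median log2 fold change 0.52), beside 47.7% of all genes. Vcam1 (mean 171 CPM with MTP10-HDL, 283 CPM with PBS) and Mrc1 (93.9 and 137 CPM) were lower and weigh heavily in the sum. After removal of each treatment's mean, G6pdx and the neutrophil sum had Pearson's r = 0.80 and Spearman's rho = 0.86 over the 13 libraries. Without PBS 4 and PBS 7, the libraries farthest from the median, r was 0.86. For the monocyte sum r was 0.74 and rho 0.65, and r was 0.53 without MTP10-HDL 1 and PBS 1. These are descriptions of libraries that share technical groups, and each group held 4 or 5 libraries, too few for a correlation within it.

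For Prps1 the same description gave r = -0.46 with the neutrophil sum and -0.02 with the monocyte sum, and for Pgd r = 0.62 and rho = 0.64 with the neutrophil sum. The HSC log2 fold change of G6pdx was 0.67 without MTP10-HDL 1 and PBS 5, the libraries of highest neutrophil sum in each treatment, and 0.65 without MTP10-HDL 1 and PBS 1, those of highest monocyte sum. These omissions were chosen after the data were seen and use the contrast that chose G6pdx. In pools of sorted cells, fewer cells of a type and less RNA per cell cannot be told apart.

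**Figure D3:**
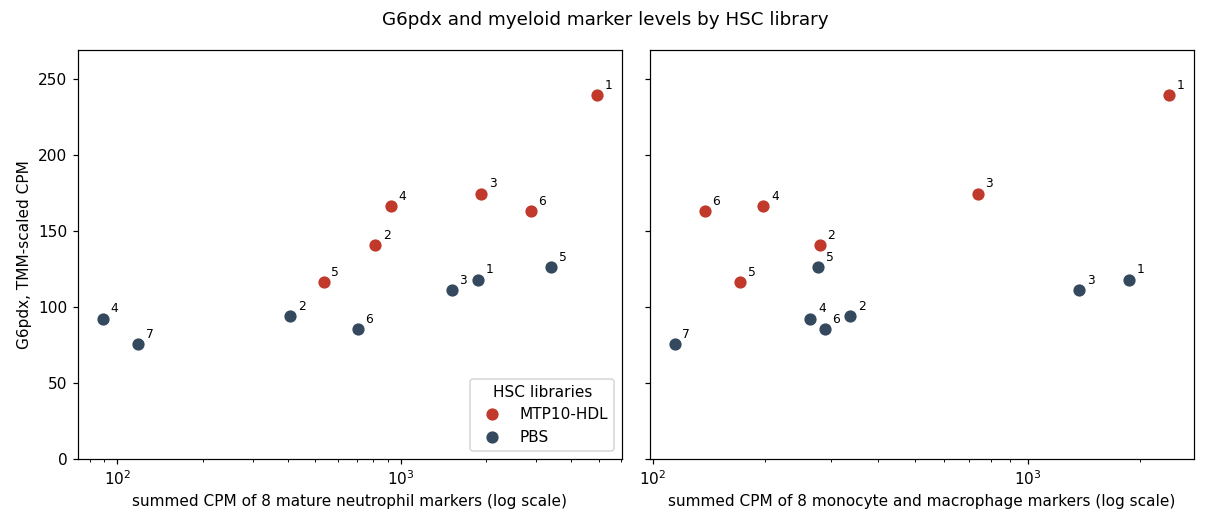
G6pdx level (TMM-scaled CPM, linear axis from 0) against the summed level (CPM, log axis) of 8 mature neutrophil markers and, in a panel of its own, 8 monocyte and macrophage markers, with a point per HSC library for MTP10-HDL (n = 6) and PBS (n = 7). MTP10-HDL 1 has the highest sums, 4925 and 2380 CPM, and the most G6pdx, 239.6 CPM, and PBS 5, with the highest neutrophil sum of the PBS libraries (3396 CPM), has the most G6pdx among them, 126.2 CPM.

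The genes most like G6pdx across HSC libraries were taken from 9205 genes with a mean of at least 10 CPM, by Pearson's r of log2 CPM after removal of treatment means. They were Lyz2, which encodes lysozyme of neutrophils and macrophages (r = 0.93), Fcgr3, a low-affinity receptor for immunoglobulin G (0.93), Cmtm3 (0.92), Ceacam1, a cell adhesion molecule (0.92), and Il6ra, the interleukin-6 receptor subunit (0.92). Lyz2 stood at 5564, 809, 1550, 626, 503 and 1306 CPM in MTP10-HDL libraries 1 to 6, and at 1526, 732, 999.6, 385, 2375, 419 and 291 CPM in PBS libraries 1 to 7. MTP10-HDL 1 is the high library for both genes, and r of G6pdx with Lyz2 was 0.86 without MTP10-HDL 1 and PBS 5. Libraries shared depth and technical group, so these r values are descriptions.

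Within treatments, members varied in HSCs in different ways. Over the 45 pairs of members the median r was 0.15, and 31 pairs were positive. G6pdx varied with Pgd (r = 0.70), the other cytosolic NADPH step, and with Rpe (0.66) and Taldo1 (0.52), and against Prps1 (-0.43). Prps1 varied with Rpia (0.71) and Pgls (0.60). PBS 5 had the highest G6pdx and the lowest Prps1 of the PBS libraries, and MTP10-HDL 1 likewise among the MTP10-HDL libraries. These r values are descriptions over 13 libraries.

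In MPPs, 9 of the 10 members were higher with MTP10-HDL, with a median log2 fold change of 0.34, against 0.02 over the 15449 genes tested, of which 52% were higher and 48% lower. None passed the FDR of 0.05 by edgeR, which called 0% of all MPP genes. At an unadjusted p under 0.05 there was 1 member, Pgls, higher and 0 lower, beside 2.17% of all genes higher and 4.06% lower (6.23% in either direction). DESeq2 called 0 members and 1.17% of all genes, and limma voom called 0 of either. In 5 members (Pgls, Pgd, Rpe, Tkt and Prps1) all 3 MTP10-HDL libraries lay above both PBS libraries, as was true of 12% of all genes. No member had all MTP10-HDL libraries below PBS, against 12.3% of all genes. The medians by branch were 0.25 for the 4 oxidative members, 0.41 for the 4 non-oxidative members and 0.29 for the 2 PRPP synthetases.

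In the oxidative branch of MPPs, G6pdx stood at 81.9, 59.6 and 105.2 CPM in MTP10-HDL libraries 1 to 3 and at 63.9 and 70.5 CPM in PBS libraries 2 and 3. The groups overlapped, since MTP10-HDL 2 was the lowest of all 5 libraries, and the log2 fold change of 0.29 (SE 0.27) did not pass (edgeR adjusted p = 0.903). The neutrophil markers summed to 223.5, 269 and 1507 CPM in MTP10-HDL libraries 1 to 3 and to 720 and 568.2 CPM in PBS libraries 2 and 3. The library with the most markers, MTP10-HDL 3, was also highest in G6pdx. Other libraries went the other way. MTP10-HDL 1, with the fewest markers, had more G6pdx than both PBS libraries, and PBS 2 had more markers but less G6pdx than PBS 3. Their part in the G6pdx level was not tested. H6pd stood at 46.8, 26.5 and 61.5 CPM with MTP10-HDL and at 50.6 and 44.0 CPM with PBS, the single member on the lower side (-0.08, SE 0.34, edgeR adjusted p = 0.983).

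Pgls had the largest MPP difference of the members, and a single library carried most of it. It stood at 120.1, 286.4 and 127.1 CPM in MTP10-HDL libraries 1 to 3 and at 75.0 and 99.1 CPM in PBS libraries 2 and 3. The groups did not overlap, but MTP10-HDL 2 was far above every other library. The log2 fold change was 1.03 (SE 0.41, unadjusted p = 0.0371, edgeR adjusted p = 0.782, DESeq2 adjusted p = 0.348), and it was 0.51 without MTP10-HDL 2. With no filter on low counts the edgeR adjusted p of Pgls was 0.0090, which is past the threshold, at a log2 fold change of 1.06 (SE 0.27). That fit called 345 of 26208 genes, against 0 of 15449 with the filter. Pgd stood at 130.0, 145.7 and 138.5 CPM with MTP10-HDL and at 126.0 and 112.2 CPM with PBS, and its log2 fold change of 0.21 (SE 0.19) did not pass (edgeR adjusted p = 0.899).

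All 4 non-oxidative members had positive log2 fold changes in MPPs and none passed. Tkt stood at 653.9, 894.4 and 738.6 CPM with MTP10-HDL and at 511.4 and 576.6 CPM with PBS. Its lowest MTP10-HDL library was above its highest PBS library, with a log2 fold change of 0.49 (SE 0.23, unadjusted p = 0.0730, edgeR adjusted p = 0.816). Rpe also parted the treatments, at 38.1, 44.7 and 46.7 CPM with MTP10-HDL and 29.3 and 34.3 CPM with PBS (0.44, SE 0.21, edgeR adjusted p = 0.819). Taldo1 overlapped, at 203.6, 321.4 and 225.2 CPM with MTP10-HDL and 170.7 and 212.6 CPM with PBS (0.38, SE 0.26, edgeR adjusted p = 0.875), as MTP10-HDL 1 lay below PBS 3. Rpia stood at 84.9, 147.1 and 75.9 CPM with MTP10-HDL and at 98.7 and 94.1 CPM with PBS (0.09, SE 0.31, edgeR adjusted p = 0.98), and its sign turned without MTP10-HDL 2 (-0.26).

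Prps1 was higher in each MTP10-HDL library of MPPs, at 85.1, 79.5 and 95.5 CPM, against 62.6 and 69.1 CPM in PBS libraries 2 and 3. The log2 fold change was 0.40 (SE 0.20, unadjusted p = 0.0824, edgeR adjusted p = 0.819). Prps2 stood at 153.6, 122.9 and 144.8 CPM with MTP10-HDL and at 121.0 and 125.4 CPM with PBS, and MTP10-HDL 2 fell between the PBS libraries (0.19, SE 0.20, edgeR adjusted p = 0.921). MTP10-HDL 2 was the highest MPP library for Pgls, Pgd, Tkt, Taldo1 and Rpia and the lowest for G6pdx and H6pd, so the members did not move together within the treated group.

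**Figure D4:**
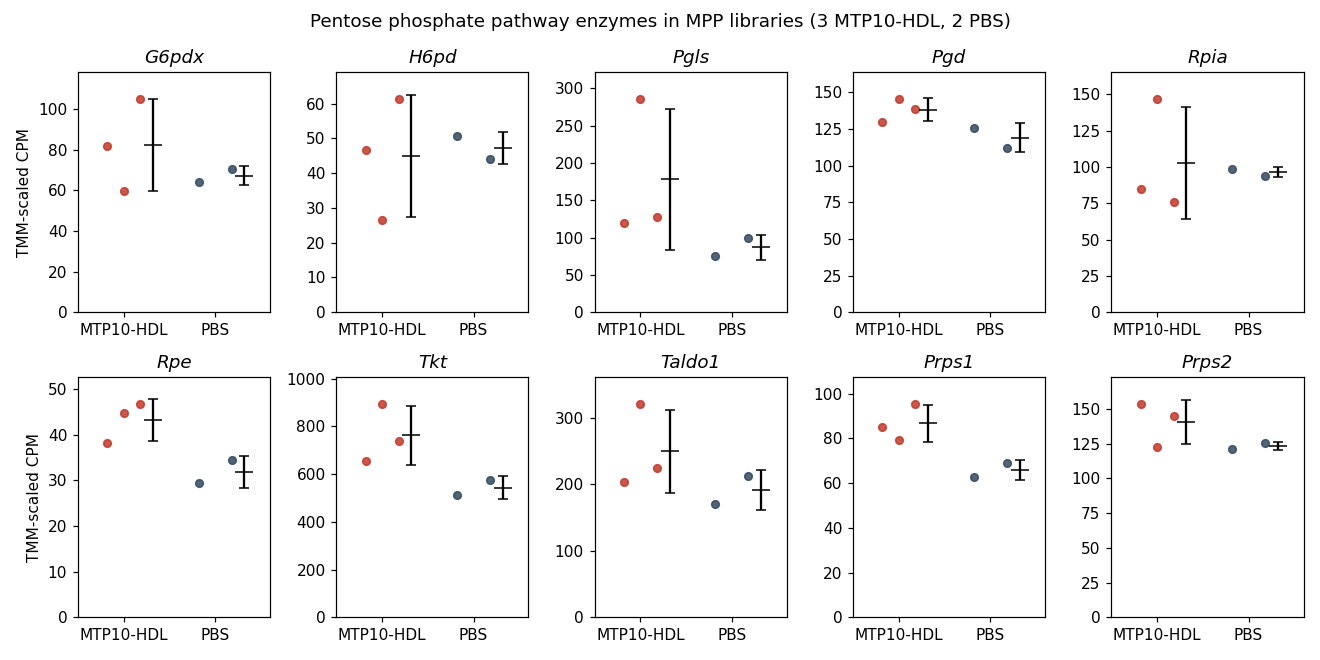
Level of each member in MPP libraries (TMM-scaled CPM, linear axis from 0), with a point per library and the mean ± SD beside each group, MTP10-HDL (n = 3) left of PBS (n = 2). Pgls, Pgd, Rpe, Tkt and Prps1 do not overlap between treatments, and Pgls in MTP10-HDL 2 (286.4 CPM) stands apart.

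**Figure D5:**
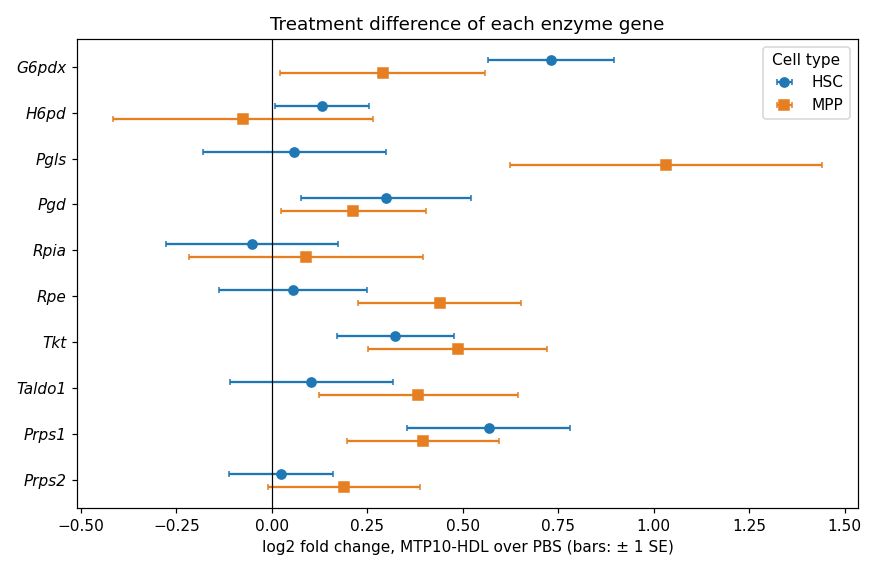
Log2 fold change of MTP10-HDL over PBS for each member in HSCs and MPPs, with bars of 1 SE from the edgeR fit. In both cell types 9 of 10 members are above 0 (7 in HSCs with upper-quartile scaling), with Rpia below 0 in HSCs (-0.05) and H6pd below 0 in MPPs (-0.08), and no member passed the FDR of 0.05 in MPPs.

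The ratio of 2 transcripts within a library does not depend on the library's scaling. The ratio of G6pdx to H6pd counts, cytosol against endoplasmic reticulum, was 1.75, 2.25 and 1.71 in MTP10-HDL MPP libraries 1 to 3, against 1.26 and 1.60 in PBS libraries 2 and 3. The log2 ratios averaged 0.92 ± 0.22 with MTP10-HDL and 0.51 ± 0.24 with PBS, a difference of 0.41 (2-sided exact permutation p = 0.1, the smallest this design allows, adjusted p = 0.2 over 2 ratios). The treatments did not overlap, and the design could not reach 0.05. The ratio of Prps1 to Prps2 counts was 0.554, 0.647 and 0.659 with MTP10-HDL and 0.518 and 0.551 with PBS, a difference of 0.21 in log2 ratio (exact permutation p = 0.2, adjusted p = 0.2). The treatments did not overlap for this ratio either, by a narrow margin. How often other gene pairs separate in this way is not given here. In HSCs the same log2 ratios differed by 0.57 for G6pdx to H6pd (1.18 ± 0.34 with MTP10-HDL, 0.61 ± 0.38 with PBS) and by 0.60 for Prps1 to Prps2 (-0.39 ± 0.33 with MTP10-HDL, -0.99 ± 0.57 with PBS), given without a test.

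Near-identical copies can share reads with the members, and how the authors' counting treated such reads is not given in the sources used here. G6pd2, a retrogene copy of G6pdx, was listed at 0 to 3.1 CPM in MTP10-HDL HSCs and 0.161 to 8.4 CPM in PBS HSCs, and at no more than 0.068 CPM in any MPP library. Prps1l3, named as a Prps1-like gene, stood at 42.9 ± 7.74 CPM in MTP10-HDL HSCs and 38.9 ± 8.04 CPM in PBS HSCs. In MPPs it stood at 54.2, 28.0 and 48.1 CPM with MTP10-HDL and at 43.9 and 38.4 CPM with PBS (log2 fold change 0.08, SE 0.30, edgeR adjusted p = 0.983). The split of reads between Prps1 and Prps1l3 is uncertain.

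The pathway's neighbours were counted in the same fits. A list of 18 genes covered purine, pyrimidine and NAD synthesis and purine and NAD salvage, and some of the enzymes use PRPP. Of these genes, 17 were higher in MPPs (median 0.20, against 0.02 over all genes) and 13 in HSCs (median 0.10, against -0.02). None passed in MPPs by edgeR, DESeq2 or limma voom, and 3 of the 18 were higher with an unadjusted p under 0.05, beside 2.17% of all genes. Every MTP10-HDL library lay above PBS for 7 of them, beside 12% of all genes, and below PBS for 1, Qprt (-0.75, SE 0.35, edgeR adjusted p = 0.811), beside 12.3% of all genes. Qprt, an enzyme of NAD synthesis, is named after its values were seen. Paics, a bifunctional enzyme of purine synthesis, stood at 608 ± 37.0 CPM in MTP10-HDL MPPs and 403 ± 37.7 CPM in PBS MPPs (SD, n = 3 and 2), a log2 fold change of 0.59 (SE 0.21, edgeR adjusted p = 0.726). Hprt, the purine salvage enzyme that consumes PRPP, stood at 235 ± 55.2 CPM with MTP10-HDL and 153 ± 19.7 CPM with PBS (0.62, SE 0.25, edgeR adjusted p = 0.787). In HSCs the log2 fold changes were 0.42 for Paics and 0.09 for Hprt.

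Of 21 genes of glucose uptake and glycolysis, 19 were higher in HSCs (median 0.37) and 11 in MPPs (median 0.02), and none passed by edgeR in either. An unadjusted p under 0.05 was reached upward by 10 of them in HSCs, beside 4.36% of all genes, and by 1 in MPPs, beside 2.17% of all genes. In MPPs every MTP10-HDL library lay above PBS for 8 of the 21, beside 12% of all genes. Every such library lay below PBS for 2, beside 12.3% of all genes. DESeq2 called Pkm in HSCs, beside 0.553% of all genes. The difference between the cell types was not tested. Gapdh, whose product oxidises glyceraldehyde-3-phosphate, stood at 304 ± 25.3 CPM in MTP10-HDL MPPs and 219 ± 5.48 CPM in PBS MPPs (0.47, SE 0.20, edgeR adjusted p = 0.789). Eno1, enolase, stood at 99.7 ± 7.62 CPM with MTP10-HDL and 74.2 ± 5.82 CPM with PBS (0.43, SE 0.19, edgeR adjusted p = 0.811), with a log2 fold change of 0.56 in HSCs. Of 6 genes of pentose and ribose salvage, 4 were higher in each cell type, and none passed by edgeR. In MPPs 2 of the 6 had every MTP10-HDL library above PBS and 0 had every one below. Rbks, ribokinase, had a log2 fold change of 0.86 (SE 0.43) and Dera, deoxyribose-phosphate aldolase, of 0.47 (SE 0.24) in MPPs (edgeR adjusted p = 0.819 for both).

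NADPH users and other NADPH sources were mixed. Of 16 genes of NADPH use and glutathione, 12 were higher in HSCs (median 0.05) and 9 in MPPs (median 0.03). In MPPs 1 of the 16 had every MTP10-HDL library above PBS, beside 12% of all genes, and 3 had every one below, beside 12.3%. Txnrd2, the mitochondrial thioredoxin reductase, stood at 46.6 ± 6.35 CPM with MTP10-HDL and 67.9 ± 6.40 CPM with PBS in MPPs (-0.55, SE 0.21, edgeR adjusted p = 0.768).

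Of 13 tested genes listed as other NADPH sources, 6 were higher in HSCs (median -0.06) and 9 in MPPs (median 0.19). Which cofactor their enzymes used was not measured. In MPPs 5 of the 13 had every MTP10-HDL library above PBS, beside 12% of all genes, and 1 had every one below, beside 12.3%. Me2, a mitochondrial malic enzyme, ran from 69.9 to 91.6 CPM with MTP10-HDL and from 52.7 to 57.8 CPM with PBS in MPPs (0.56, SE 0.21, edgeR adjusted p = 0.748), and had a log2 fold change of 0.54 in HSCs. Aldh1l2, a mitochondrial formyltetrahydrofolate dehydrogenase, was low in MPPs, at 0.772 ± 0.123 CPM with MTP10-HDL and 3.32 ± 1.56 CPM with PBS (-2.10, SE 0.67, edgeR adjusted p = 0.667). Of 6 NADPH oxidase genes, 5 were higher in HSCs (median 0.33) and 4 in MPPs (median 0.07). In MPPs 1 of the 6 had every MTP10-HDL library above PBS and 1 had every one below. Cybb, the catalytic subunit of the phagocyte oxidase, stood at 31.7 ± 15.8 CPM with MTP10-HDL and 70.8 ± 27.2 CPM with PBS in MPPs (-1.16, SE 0.41, edgeR adjusted p = 0.726). In HSCs its log2 fold change had the other sign, 0.86 (SE 0.61). There it ran from 84.3 to 1075 CPM with MTP10-HDL and from 31.0 to 327 CPM with PBS.

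None of the genes that act on the pathway or its enzymes passed the test in MPPs. Prpsap1 and Prpsap2, which encode proteins that bind PRPP synthetases, had MPP log2 fold changes of -0.02 (SE 0.26) and 0.19 (SE 0.24), with edgeR adjusted p = 0.994 and 0.942. Trp53, the tumour suppressor p53, had 0.23 (SE 0.19, edgeR adjusted p = 0.889) in MPPs. Myc, a transcription factor that acts on many genes of nucleotide synthesis, had 0.11 (SE 0.24, edgeR adjusted p = 0.968).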

How the data were processed

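RNA sequencing of sorted HSC and MPP pools was compared between MTP10-HDL and PBS mice. The values deposited by the authors are raw whole-number counts of reads per gene, in a table of 13 HSC columns and another of 5 MPP columns. The submitters' processing notes list STAR 2.5.2b and CASAVA 1.8.2 for the HSC data, STAR 2.7.2a, R 3.6.1 and DESeq2 1.24 for the MPP data, and the mm10 build for both. Neither the tool that counted reads nor its annotation or use of strand was found in the sources used here. HSC PBS columns are numbered 1 to 7 while the labels end at number 8, so the last column was used as a member of its group. Where a symbol had several Ensembl rows, the row with the most reads was used.

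Each table was fitted alone in R 4.3.3 with edgeR 4.0.16 (TMM scaling, filterByExpr, quasi-likelihood test, Benjamini-Hochberg over all genes tested, FDR 0.05). DESeq2 1.42.0 and limma voom 3.58.1 were alternatives, beside other scalings, no filter, the technical group as covariate, a replicate block and leaving out libraries. The fits were checked on simulated counts. Within-library ratios used a pseudocount of 0.5 reads and log2 CPM a prior count of 2.

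The members, lists and tests were chosen with earlier results of these data known, and the technical groups and marker lists were carried over from those results. All members are named, and from each other list of pathway genes and regulators the genes of smallest MPP p (2 where none passed), apart from some genes that are not reported here. Pkm, Qprt, Lyz2 and the other genes most like G6pdx were named after their values were seen or by the likeness rule. Genes were placed with RefSeq names and positions on GRCm38.p6. Library depth was 4064155 to 7879858 counts in HSCs and 11252479 to 32769369 in MPPs, and no member had under 63 reads in any library.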

Additional observations from a re-analysis of the deposited data

Results flagged for a closer look

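Prps2 stood at 107 CPM in HSC library PBS 2, apart from the other 6 PBS libraries, which ran from 67.6 to 82.3 CPM. The gap to the nearest library, as a share of the group's range, passed Dixon's 95% critical value. Of 20 groups tested, 1 was marked in this way, and chance marks about 1 in 20.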

How the results depend on the processing

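By edgeR, 0 genes were called in each cell type. In HSCs DESeq2 called 92 genes (28 higher, 64 lower), the edgeR fit without a filter called 44 (7 higher, 37 lower), and leaving out a library gave 0 to 1. In MPPs DESeq2 called 180 genes (29 higher, 151 lower), the fit without a filter 345 (49 higher, 296 lower), and leaving out a library 0 to 17 (17 lower without PBS 3). Replicate numbers were not taken to pair pools. Deviations of same-numbered pools correlated at -0.16 to 0.23 in HSCs and -0.11 in MPPs, where so few pools can show little about pairing. With the replicate block 0 HSC genes and 43 MPP genes (0 higher, 43 lower) were called. The cause of these differences was not tested.

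Of 220 recomputed HSC log2 fold changes of members, 20 changed sign and 1 gained a call (G6pdx by DESeq2, 0.72). Of 110 MPP values, 3 changed sign and 1 gained a call (Pgls with no filter, 1.06). Sign changes in HSCs were Rpia without a filter (0.0087) and without MTP10-HDL 1 and PBS 1 (0.18), Rpe with upper-quartile scaling (-0.018) and with the technical group as covariate (-0.0079), Taldo1 without MTP10-HDL 1 and PBS 5 (-0.050), and Prps2 with upper-quartile scaling (-0.039) and the replicate block (-0.016). Leaving out single libraries moved HSC values of Pgls between -0.037 and 0.22, Rpia between -0.18 and 0.075, Rpe between -0.016 and 0.15, Taldo1 between -0.028 and 0.23 and Prps2 between -0.017 and 0.11. In MPPs it moved H6pd between -0.36 and 0.19 and Rpia between -0.26 and 0.27. Pair omissions were chosen after seeing the data. G6pdx, Prps1, Tkt and Pgd kept their sign in every fit run in both cell types. The HSC fits reuse the contrast that chose G6pdx, so nothing is read from its sign there. The share of all genes that kept their sign is not given here. With 2 PBS pools in MPPs, a member can separate fully and still miss the threshold.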
